A study of Mus musculus with 6 samples.

Results

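Etv5 and 9 other genes of the ETS transcription factor family were followed in the pigmented mouse melanoma line B16F10, cultured with 10 µM GSK126 or with DMSO, its vehicle. GSK126 inhibits EZH2, the enzyme of Polycomb repressive complex 2 that methylates histone H3 at lysine 27. The 10 genes, among 54838 in the files, were matched by symbol and are Etv5, Etv1, Etv4, Ets1, Ets2, Elk1, Elk3, Elk4, Elf1 and Etv6. They were chosen from results of this same comparison, in which Etv5 was among the genes with the largest falls, so their values are a description and carry no test. Each group has 3 libraries of bulk RNA, GSK126 replicates 1 to 3 and DMSO replicates 1 to 3. Separate cultures are not stated in the labels, nor is the length of treatment. DMSO replicate 3 stood apart for Ets1 and Elk4, whose fold changes are given with and without it.

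ETS factors share a DNA-binding domain that reads a short GGAA core. Etv1, Etv4 and Etv5 form the PEA3 subgroup, whose transcripts are known to be raised by signalling through the kinase ERK and repressed by the factor Capicua (Cic). Elk1, Elk3 and Elk4 are ternary complex factors, which bind beside serum response factor (Srf) and are phosphorylated by ERK. Ets1 and Ets2 are also ERK substrates, Elf1 is an activator best known from lymphoid cells, and Etv6 is a repressor.

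The promoter windows of the PEA3 genes are shown because Capicua is known to bind octamers that hold the letters TGAATG, while ETS factors bind sequences such as GGAAGT. The windows run from 250 bases before to 50 bases after an annotated start and come from RefSeq on GRCm38.p6. They were matched for 8 of the 10 genes, all but Etv4 and Ets1, with 13 windows in all. Capitals mark TGAATG or GGAAGT on either strand.
Etv5, the upstream start, chr16:22439521-22439820, minus strand: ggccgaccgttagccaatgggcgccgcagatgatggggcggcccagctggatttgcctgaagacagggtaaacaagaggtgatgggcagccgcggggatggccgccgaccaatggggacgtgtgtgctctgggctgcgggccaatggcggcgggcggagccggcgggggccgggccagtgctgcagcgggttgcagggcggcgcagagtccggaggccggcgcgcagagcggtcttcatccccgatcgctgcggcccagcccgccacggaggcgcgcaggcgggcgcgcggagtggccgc
Etv5, the downstream start, chr16:22438319-22438618, minus strand: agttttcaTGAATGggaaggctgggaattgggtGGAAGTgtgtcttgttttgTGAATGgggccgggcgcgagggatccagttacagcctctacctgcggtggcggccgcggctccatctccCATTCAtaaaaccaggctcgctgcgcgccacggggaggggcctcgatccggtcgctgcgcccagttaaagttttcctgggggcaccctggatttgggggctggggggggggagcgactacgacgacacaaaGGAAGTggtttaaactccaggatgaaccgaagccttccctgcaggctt
Etv1, the upstream start, chr12:38779832-38780131, plus strand: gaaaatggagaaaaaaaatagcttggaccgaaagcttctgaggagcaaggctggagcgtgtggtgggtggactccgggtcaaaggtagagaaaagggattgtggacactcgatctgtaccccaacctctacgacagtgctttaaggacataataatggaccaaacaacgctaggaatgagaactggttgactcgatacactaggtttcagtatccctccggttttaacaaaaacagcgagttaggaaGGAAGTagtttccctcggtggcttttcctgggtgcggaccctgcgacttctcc
Etv1, the downstream start, chr12:38783461-38783760, plus strand: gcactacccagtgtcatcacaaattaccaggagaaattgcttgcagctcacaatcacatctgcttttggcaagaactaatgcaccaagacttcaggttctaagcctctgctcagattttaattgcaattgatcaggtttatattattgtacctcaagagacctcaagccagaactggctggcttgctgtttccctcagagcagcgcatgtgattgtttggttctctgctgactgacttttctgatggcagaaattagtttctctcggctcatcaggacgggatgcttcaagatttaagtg

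The window at the downstream start of Etv5 holds TGAATG 3 times, at bases 9 and 53 on its own strand and at base 122 on the other. At least 3 matches were found in 0.17% of all 32851 windows of that length, and at least 1 match in 12.7%. All 3 stand in the longer word TGAATGGG, a word chosen after the window was seen, and no other window of the 32851 holds it 3 times. The octamers TGAATGAA and TGAATGGA, each present in over 1% of windows (1.30% and 1.21%), were not found in it. The same window holds GGAAGT 2 times, as 4.18% of windows do at least that often, and the upstream window of Etv1 holds it 1 time, as 23.8% of windows do at least. TGAATG was absent from the other 12 windows of the listed genes. The gene counts cannot tell which start of Etv5 was used.

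Etv5 (GRCm38 chromosome 16, 22381309 to 22439719) is the PEA3 factor with the highest FPKM, the authors' count scaled by depth and a gene length. Unscaled by length, Etv1 had more reads than Etv5 in every library. Its read counts were 50, 50 and 52 in the GSK126 libraries and 159, 148 and 177 in the DMSO libraries. Every GSK126 library lay below every DMSO library. The GSK126 libraries differed among themselves by a factor of 1.07, a spread that 81.3% of 10973 compared genes reached or exceeded in that group. At about 50 reads each, so close a match is not read as precision. In CPM, the count scaled by the size of its library, with 3.40 to 3.63 in the GSK126 libraries and 10.5 to 13.1 in the DMSO libraries, Etv5 averaged 3.50 ± 0.114 in GSK126 cells and 11.8 ± 1.30 in DMSO cells (SD, n = 3 each). The log2 fold change of GSK126 over DMSO from the fit across all genes was -1.75 (SE 0.13), which is 3.35-fold lower with GSK126. In bulk RNA, fewer cells with the transcript and less transcript per cell cannot be told apart. Its annotated pseudogene CT485613.5 had 0 reads in the 6 libraries together, and GENCODE M21 gives no gene that shares exons with Etv5.

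Etv1 (chromosome 12, 38779380 to 38870484), a PEA3 factor known for its role downstream of the receptor Kit, had 128, 111 and 136 reads in the GSK126 libraries and 242, 259 and 203 in the DMSO libraries. The groups did not overlap, with the 3 GSK126 libraries all below the lowest DMSO library. Etv1 averaged 0.394 ± 0.0450 FPKM in GSK126 cells and 0.776 ± 0.0846 FPKM in DMSO cells (SD, n = 3 each). The log2 fold change was -0.98 (SE 0.13). Etv4 (chromosome 11, 101769742 to 101785371), the founding PEA3 gene, had 1, 2 and 0 reads in the GSK126 libraries and 17, 16 and 24 in the DMSO libraries. It was thus close to undetected with GSK126 and low, but present in each library, with DMSO. Over the summed counts, 3 in GSK126 and 57 in DMSO libraries, the ratio of GSK126 to DMSO was 0.0501 (exact 95% interval 0.0100 to 0.154, for counting error only). Etv4 passed the filter on low counts only through its DMSO libraries.

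**Figure D1:**
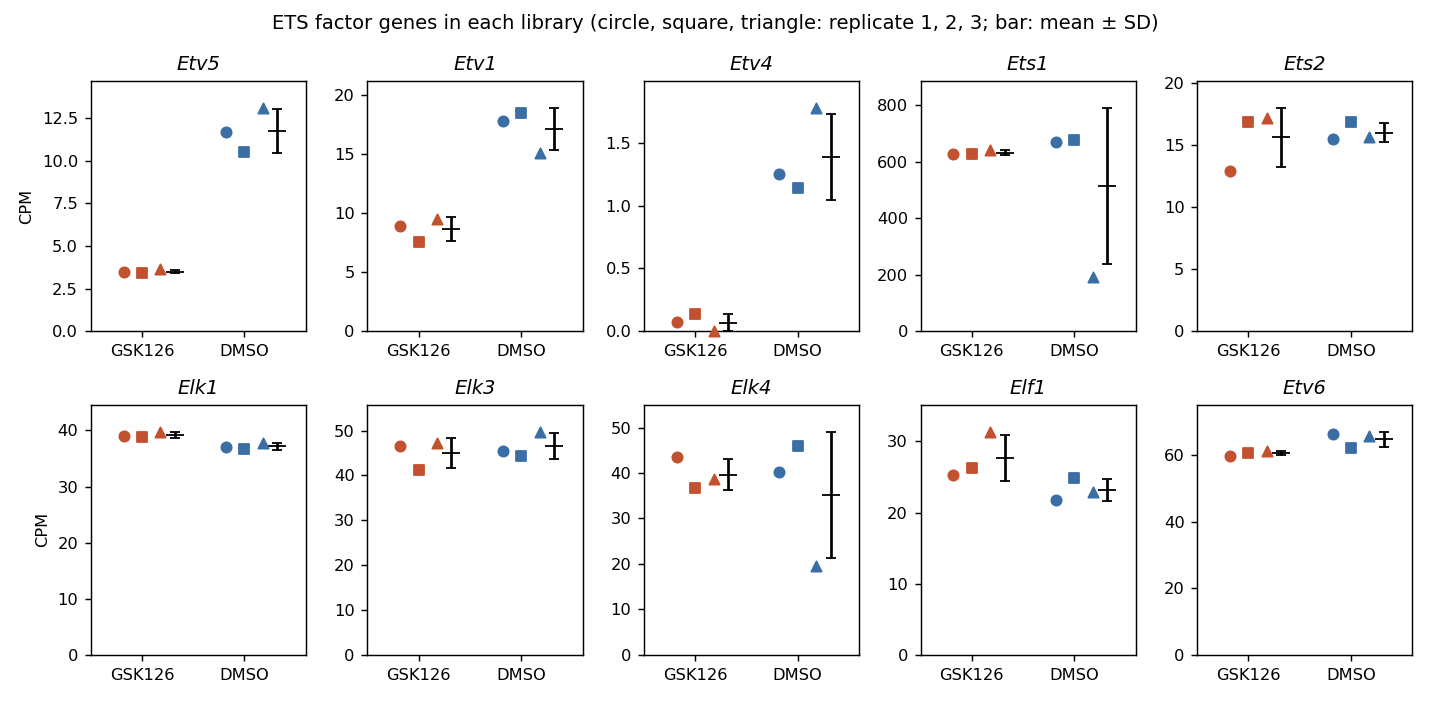
CPM (vertical axes, from 0) of the 10 ETS genes in the 3 GSK126 libraries, left, and the 3 DMSO libraries, right; points are libraries and bars the mean ± SD. Etv5 sits at 3.40 to 3.63 CPM with GSK126 against 10.5 to 13.1 CPM with DMSO, and the third DMSO library stands far below the others for Ets1 and Elk4.

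Added up in the authors' FPKM, the PEA3 transcripts came to 0.899 ± 0.0487 in GSK126 cells and 2.66 ± 0.149 in DMSO cells (SD, n = 3 each). The ratio of Etv5 to Etv1 FPKM was 1.21, 1.39 and 1.18 in the GSK126 libraries and 2.03, 1.77 and 2.70 in the DMSO libraries. In FPKM Etv5 was thus above Etv1 in all 6 libraries, although Etv1 had more reads in each of them. The ratio was lower in each GSK126 library than in each DMSO library. The other 7 listed factors came to 83.7, 82.1 and 85.0 FPKM in the GSK126 libraries and 86.3, 87.5 and 43.8 FPKM in the DMSO libraries, where the low value of replicate 3 goes with Ets1 and Elk4.

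Of the other 7 listed factors, none passed the test across all genes, and their log2 fold changes lay between -0.10 for Etv6 and 0.30 for Ets1. In the full list of 10, 3 genes were called lower, which are the PEA3 genes, and 0 higher (edgeR; 11.1% of all 13601 tested genes were called, 5.18% lower and 5.87% higher). The list was chosen with this comparison known, so nothing is read from that count. Likewise as background only, 0.684% of tested genes had a log2 fold change of -1 or below, as Etv5 and Etv4 had, and 16.8% had every GSK126 library below every DMSO library, as the PEA3 genes and Etv6 had. For the same reason the difference between the PEA3 genes and the other factors is given as values side by side and was not tested.

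The ternary complex factors Elk1 and Elk3 stayed close to their DMSO levels. Elk1 had 39.0, 38.8 and 39.8 CPM in the GSK126 libraries and 37.0, 36.6 and 37.8 CPM in the DMSO libraries, groups that did not overlap although they differed by little (log2 fold change 0.08, SE 0.06). Elk3 had 46.5, 41.2 and 47.2 CPM with GSK126 and 45.3, 44.4 and 49.8 CPM with DMSO, with overlapping groups (-0.05, SE 0.08). Elf1 had 25.3, 26.3 and 31.4 CPM with GSK126 and 21.8, 24.8 and 22.9 CPM with DMSO, again without overlap (0.26, SE 0.11). Groups without overlap occurred in 34.4% of all tested genes. Part of the reads of these genes is uncertain, since Elk1 shares 76 bp of exons with Uxt, Elk3 316 bp with Cdk17 and Elf1 327 bp with Wbp4. With the counts of each pair added, the log2 fold changes were 0.05 (SE 0.06), -0.12 (SE 0.06) and 0.13 (SE 0.06) for the Elk1, Elk3 and Elf1 pairs.

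Etv6 had 859, 895 and 878 reads with GSK126 and 904, 874 and 890 with DMSO, or 60.7 ± 0.649 CPM in GSK126 cells and 64.9 ± 2.33 CPM in DMSO cells (SD, n = 3 each). In CPM its groups also lay apart, while its log2 fold change was only -0.10 (SE 0.06). Ets2, a factor close to Ets1 in sequence, had 12.9, 16.9 and 17.2 CPM with GSK126 and 15.5, 16.9 and 15.6 CPM with DMSO. Its groups overlapped, the lowest value being GSK126 replicate 1 (log2 fold change -0.03, SE 0.12).

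**Figure D2:**
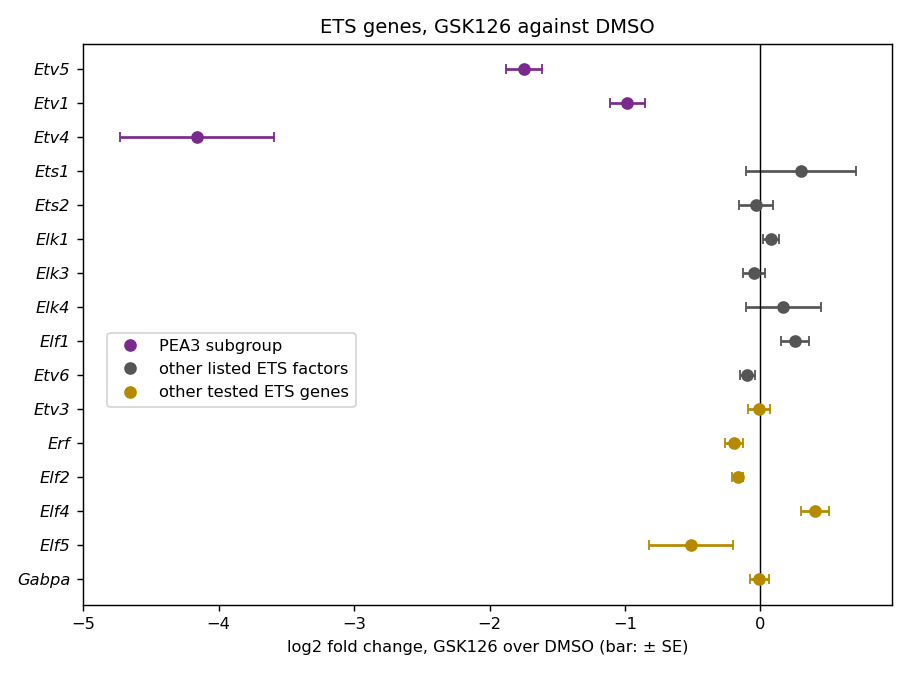
Log2 fold change of GSK126 over DMSO (horizontal axis, bars ± SE) for the 10 listed ETS genes and the 6 other ETS genes with enough reads to test. The PEA3 genes lie at -1.75, -0.98 and -4.16, the last resting on 3 reads in the GSK126 libraries and on the prior count of the fit, while the other genes lie between -0.51 and 0.41.

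Ets1 and Elk4 stood at 2 levels within the DMSO group. Ets1 (chromosome 9, 32636221 to 32757820) had 9003, 9220 and 9194 reads in the GSK126 libraries and 9111, 9527 and 2612 in the DMSO libraries. DMSO replicates 1 and 2 were thus close to the GSK126 libraries, and DMSO replicate 3 was 3.51-fold below their mean. Elk4 (chromosome 1, 132007607 to 132032612) had 623, 541 and 555 reads with GSK126 and 548, 645 and 263 with DMSO, and its low library was again DMSO replicate 3, 2.23-fold below the mean of the other DMSO libraries. The fold changes of both genes rest on that library. For Ets1 the log2 fold change was 0.30 (SE 0.40) with all libraries and -0.09 (SE 0.04) without DMSO replicate 3. For Elk4 it was 0.17 (SE 0.28) with all libraries and -0.12 (SE 0.11) without it.

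The total of DMSO replicate 3, 13597959 reads over all genes, was close to the lowest of the 6 libraries, which had 13594939 to 14713373. Such an odd library, 2-fold or more away from both others of its group while those lay close to each other (within 1.25-fold), was counted over 10970 genes with at least 5 CPM on average. It occurred in 0.620% of them for DMSO replicate 3, with 45 genes low and 23 high, and in 0.246% to 0.492% for each of the other 5 libraries. A spread within the DMSO group as wide as that of Ets1 was seen in 0.510% of 10973 genes, and one as wide as that of Elk4 in 1.30%. No annotated neighbour within 100 kb of either gene was higher in DMSO replicate 3 by a number of reads near the shortfall. Nucks1, within 100 kb of Elk4, had 7308 reads in DMSO replicate 3 and 7363 and 8011 in DMSO replicates 1 and 2, and none of the 7 annotated neighbours of Ets1 within 100 kb had more than 2 reads over all libraries. No gene with more than 13 reads shares exons with Elk4, and none shares exons with Ets1. The cause was not tested.

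**Figure D3:**
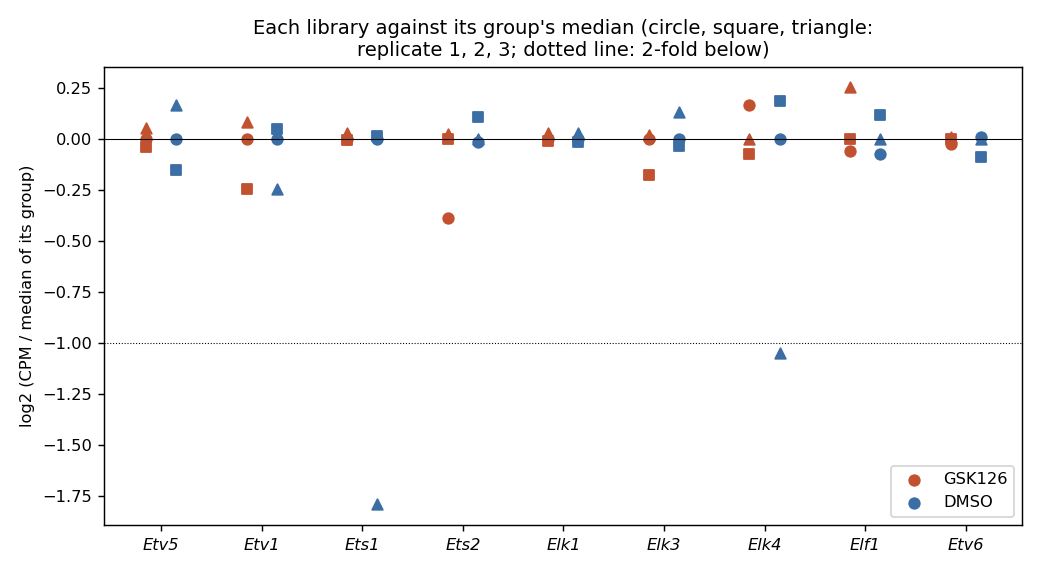
Log2 ratio of each library's CPM to the median of its own group (vertical axis) for 9 of the ETS genes; Etv4 is left out because 1 library is at 0. DMSO replicate 3 (blue triangle) lies more than 2-fold below its group's median for Ets1 and Elk4, while all libraries of the other 7 genes stay within 2-fold.

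The levels per length put the PEA3 genes at the low end of the expressed ETS family. In both groups Ets1 was first, with 53.5 to 54.4 FPKM in the GSK126 libraries and 16.4 to 57.8 FPKM in the DMSO libraries. In GSK126 cells the FPKM order was then Erf, Gabpa, Elf2, Elk1, Elk3, Etv6, Elk4, Elf1, Elf4, Etv3, Ets2, Etv5 and Etv1. By CPM in GSK126 cells, Etv6 (60.7) stood above Elk3 (45.0) and Elk1 (39.2), although its FPKM was below theirs. Of these neighbours, Erf and Gabpa, Elk1 and Elk3, Elk4 and Elf1, and Elf1 and Elf4 had overlapping library values. The order in DMSO cells was the same apart from Elk1 and Elk3, which changed places. In DMSO cells Ets1 overlapped Erf and Elk4 overlapped Elf1, in both cases through the low value of replicate 3.

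The distance between Ets2 and Etv5 in FPKM differed with treatment, while whether their values overlapped depends on the gene lengths used. In GSK126 cells Etv5 had 0.479 to 0.508 FPKM and Ets2 1.40 to 1.85 FPKM, with no overlap. In DMSO cells Etv5 had 1.48 to 1.83 FPKM and Ets2 1.68 to 1.82 FPKM, which overlapped. Etv4 ranked number 19 among the 27 ETS genes with 0.0113 FPKM on average in GSK126 cells and number 15 with 0.227 FPKM in DMSO cells.

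**Figure D4:**
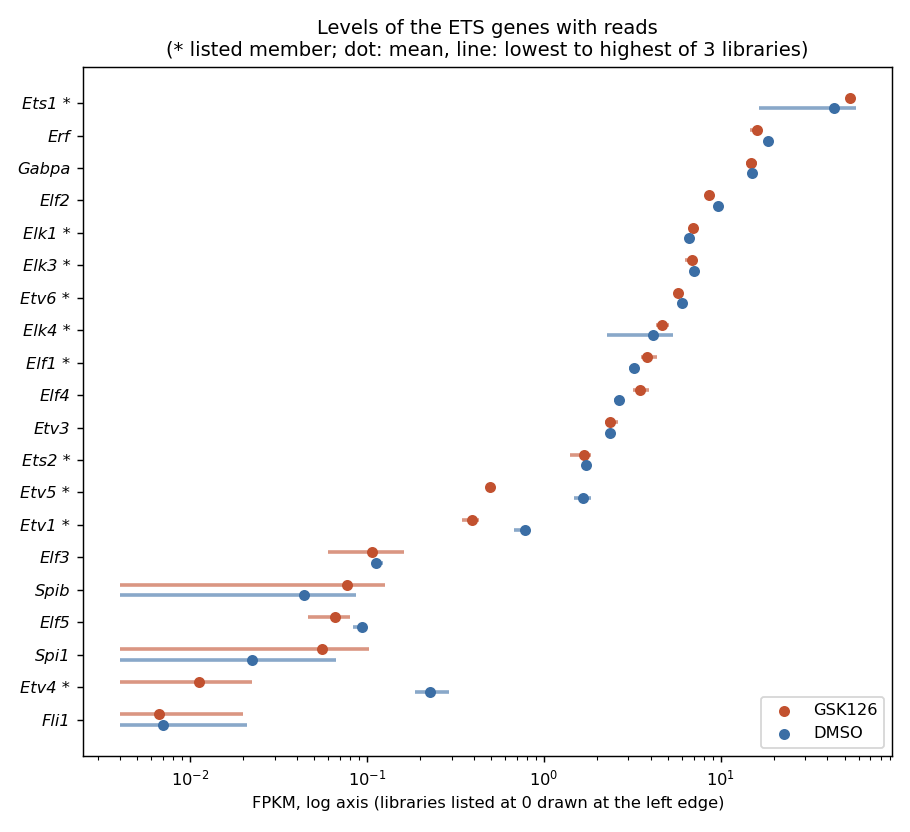
FPKM on a log axis for the 20 ETS genes with any read, in GSK126 cells (above) and DMSO cells (below) of each row; dots are means and lines run from the lowest to the highest library. The lines of Etv5, Etv1 and Etv4 lie lower in GSK126 cells with no overlap, and Ets1 and Elk4 have long lines in DMSO cells.

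The other 17 ETS genes outside the list held 6 that could be tested, with log2 fold changes from -0.51 to 0.41. Another 7 had 0 reads in every library, including the endothelial factor Erg and the epithelial factors Ehf and Spdef, and 4 had reads below the filter. Elf4 rose to 38.2 ± 4.44 CPM in GSK126 cells, against 28.9 ± 1.98 CPM in DMSO cells (SD, n = 3 each), with a log2 fold change of 0.41 (SE 0.10; edgeR adjusted p = 0.0470). Elf2 fell to 172 ± 1.66 CPM in GSK126 cells, against 193 ± 4.10 CPM in DMSO cells (-0.17, SE 0.04; edgeR adjusted p = 0.0403). Neither call was firm. Dropping any 1 of the 6 libraries ended that of Elf4 (largest adjusted p = 0.148), and dropping any but GSK126 replicate 3 ended that of Elf2 (largest adjusted p = 0.139). The ERK-regulated repressor gene Erf (-0.20, SE 0.07), its relative Etv3 (-0.01, SE 0.08), the mitochondrial gene regulator Gabpa (-0.01, SE 0.07), which shares 397 bp of exons with the more abundant Atp5j, and Elf5 (-0.51, SE 0.31) did not pass. Elf5 is near the filter on low counts, with 10, 6 and 9 reads in the GSK126 libraries and 12, 12 and 10 in the DMSO libraries.

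Among genes known to feed back on or report ERK output, as Etv4 and Etv5 themselves do, more fell than rose, in a list drawn up with earlier results known. The list has 17 genes, and of the 16 tested, 8 fell, 2 rose and 6 missed the threshold, with a median log2 fold change of -0.27 against -0.00048 for all tested genes, of which 5.18% fell and 5.87% rose. The ephrin receptor gene Epha2 (-1.21, SE 0.28), the cyclin D1 gene Ccnd1 (-1.11, SE 0.06), the ERK pathway inhibitor gene Spry4 (-1.11, SE 0.15), Myc (-0.67, SE 0.10) and the ERK phosphatase gene Dusp6 (-0.62, SE 0.08) fell, while Epha4 rose (0.99, SE 0.15). Ccnd1 shares 1100 bp of exons with LTO1, which has 6.97% as many reads. The number that fell was 5 without GSK126 replicate 1, DMSO replicate 1 or DMSO replicate 2. Dropping single libraries ended the Epha2 call in 5 of 6 cases (largest edgeR adjusted p = 0.109). Epha2 had few reads, 20, 39 and 23 in the GSK126 libraries and 51, 56 and 73 in the DMSO libraries. Its call was also lost without the filter on low counts (edgeR adjusted p = 0.0766) and with the replicate number as a block (edgeR adjusted p = 0.0845). The number that rose was 1 without GSK126 replicate 1 or any DMSO replicate.

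Among Srf and the immediate early genes known as targets of the ternary complex factors, more rose than fell. The list has 13 genes, and of the 11 tested, 4 rose, 1 fell and 6 missed the threshold, with a median log2 fold change of 0.76 (all tested genes: 5.87% rose, 5.18% fell, median -0.00048). This list too was drawn up with earlier results known. The immediate early genes Egr1 (2.27, SE 0.23), Fos (1.61, SE 0.17), Junb (0.87, SE 0.10) and Ier2 (0.76, SE 0.12) rose, whereas Srf, the partner of the Elk factors, fell to 33.6 ± 0.913 CPM in GSK126 cells, against 51.6 ± 0.0798 CPM in DMSO cells (SD, n = 3 each; -0.62, SE 0.06; edgeR adjusted p = 0.00156). Junb shares 173 bp of exons with the more abundant Prdx2, and Ier2 no longer passed once DMSO replicate 1 was dropped (edgeR adjusted p = 0.0512).

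**Figure D5:**
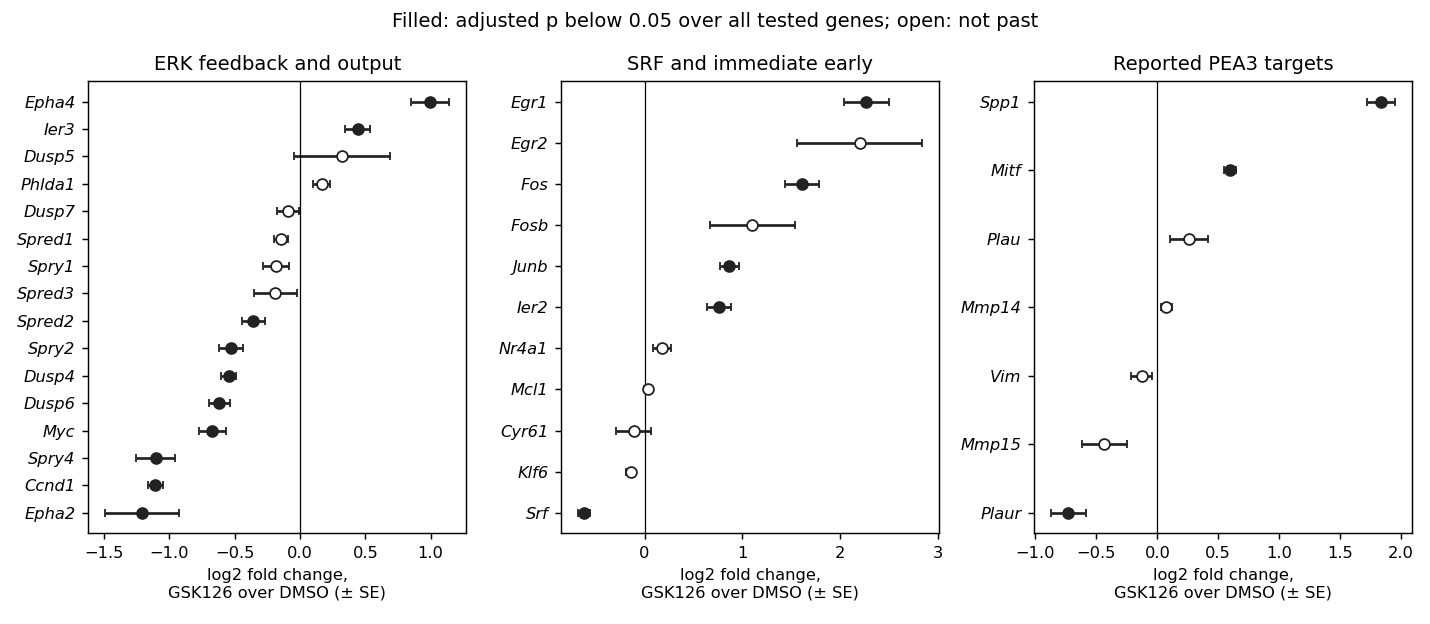
Log2 fold change of GSK126 over DMSO (horizontal axes, bars ± SE) for tested genes of 3 lists; filled points passed the test over all genes. In the list of ERK feedback and output 8 genes are filled on the left of 0 and 2 on the right, in that of Srf and immediate early genes 1 on the left and 4 on the right.

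Few transcripts of the ERK cascade itself passed the test, and some were too uneven within a group to judge. Of 23 tested members, Braf (0.39, SE 0.06) and the receptor gene Met (0.25, SE 0.05) rose and 0 fell by edgeR, also 0 by DESeq2 and limma-voom and 3 at an unadjusted p below 0.05. Over all tested genes 5.87% rose and 5.18% fell, so the cascade's share of risen genes was near that background. Braf shares 146 bp of exons with Ndufb2, and Met no longer passed once any 1 DMSO library was dropped (largest edgeR adjusted p = 0.0720). Nras (-0.66, SE 0.45) also stood at 2 levels within DMSO, but in replicate 1, with 116 CPM against 39.4 and 32.1 in DMSO replicates 2 and 3. Grb2 (-0.13, SE 0.21) had 46.9 CPM in GSK126 replicate 3, against 84.7 and 87.0 in GSK126 replicates 1 and 2. The ERK-activated kinase gene Rps6ka3 (-0.20, SE 0.39) also stood at 2 levels within DMSO, low in replicate 1, and was spread within GSK126. It had 73.8, 117 and 194 CPM in the GSK126 libraries and 83.6, 179 and 180.0 CPM in the DMSO libraries. Among 10 genes that turn over or repress the PEA3 factors, Cic rose by little (0.18, SE 0.04; edgeR adjusted p = 0.0470), a call that dropping any 1 library ended (largest adjusted p = 0.158), and Cop1, the ubiquitin ligase known to degrade PEA3 proteins, had a log2 fold change of -0.01 (SE 0.07). None of that list fell by edgeR, DESeq2 or limma-voom, and 0 did at an unadjusted p below 0.05. Of 12 cofactors of ETS proteins, 0 passed by edgeR, DESeq2 or limma-voom and 3 had an unadjusted p below 0.05, and the most abundant, Ncor1, had a log2 fold change of 0.06 (SE 0.08).

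Reported targets of PEA3 factors in other tissues mostly had too few reads to test, and the called ones went in both directions. Of 19, 6 had 0 reads, 6 fell below the filter and 7 were tested. Of those tested, 2 rose, 1 fell and 4 missed the threshold (all tested genes: 5.87% rose, 5.18% fell). The osteopontin gene Spp1 rose to 24.7 ± 1.35 CPM in GSK126 cells, against 6.91 ± 0.920 CPM in DMSO cells (SD, n = 3 each; 1.84, SE 0.12; edgeR adjusted p = 0.000377). Mitf, the melanocyte master regulator that ETV1 is known to raise in human melanoma, also rose (0.60, SE 0.05; edgeR adjusted p = 0.00101), and the urokinase receptor gene Plaur fell (-0.73, SE 0.14; edgeR adjusted p = 0.0206). Plaur no longer passed once GSK126 replicate 2, DMSO replicate 2 or DMSO replicate 3 was dropped (largest edgeR adjusted p = 0.0756).

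Likeness of profile to Etv5 over the 6 libraries was taken for 10972 genes with at least 5 CPM on average. Predicted genes, clone names and genes that do not code for protein were left out of the ranking. The 5 genes most like Etv5 were then the ribosome assembly factor gene Ltv1, the monoamine oxidase gene Maoa, the cell cycle factor gene E2f4, the cilium gene Wdr35 and the RNA polymerase I subunit gene Polr1b. Their Pearson r with Etv5 in log2 CPM was 0.997 to 0.999, and 384 of all 10972 genes reached 0.95. The points share libraries, depth and the contrast between 2 groups, so this likeness is a description only. Their own log2 fold changes were smaller than that of Etv5, from -0.44 for Ltv1 and Polr1b to -0.12 for Wdr35.

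Across the series, the libraries held 13594939 to 14713373 reads over genes, at which 1 read of a gene is about 0.07 CPM. Melanocyte markers matched the labelled cell line, with all 8 tested, of which 4 were called higher and 1 lower by edgeR (2 higher and 1 lower by DESeq2; 5.87% and 5.18% of all tested genes by edgeR), and summed levels of 23781 to 25037 CPM in GSK126 cells and 22388 to 23631 CPM in DMSO cells. Leukocyte markers summed to 3.13 to 4.25 CPM in GSK126 cells and 1.93 to 3.34 CPM in DMSO cells, mostly from Cd68, with Cd3e, Adgre1 and Itgam at 0. Endothelial markers summed to 5.72 to 7.40 CPM in GSK126 cells and 3.23 to 3.48 CPM in DMSO cells, mostly from Vwf, which was itself called higher, with Cdh5, Tek, Kdr and Emcn at 0. Fibroblast markers summed to 17.1 to 22.4 CPM in GSK126 cells and 23.2 to 26.5 CPM in DMSO cells. Their part in the results was not tested.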

How the data were processed

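RNA was sequenced from 3 GSK126 and 3 DMSO libraries. The submitters' processing notes name CASAVA 1.8, HISAT2 and the build GRCm38.p4/mm10. The counting tool and its strand setting have no mention in the sources used here, so reads of overlapping genes cannot be told apart by strand. The values used are the authors' raw counts of reads by gene and, from another deposited table, FPKM. The FPKM were proportional to the counts over library totals (largest ratio between libraries 1.000009 over 10025 genes with at least 100 reads), so they were used only for levels per length.

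Samples were grouped by label. Counts were fitted in R 4.3.3 with edgeR 4.0.16 (filterByExpr, TMM, quasi-likelihood F test, group as the only term), with Benjamini-Hochberg adjustment over 13601 genes and a threshold of 0.05. Standard errors come from the F statistic. CPM use TMM-scaled totals, except in the count of odd libraries, which uses plain totals. DESeq2 1.42.0, limma 3.58.1 (voom, and trend on log2 of FPKM plus a pseudocount of 1 or 0.1), other normalisations and filters, the replicate number as a block and leaving out each library were alternatives. As a check of the code only, the fits were also run on simulated counts with known changes. Those counts were drawn from the fit's own means and dispersions, with no single library set apart, and no result here rests on them. Shared exons come from GENCODE M21, in which all 10 genes have the files' positions. Intervals cover counting error only. Since separate cultures are not stated, p-values cover only the spread among these libraries, possibly technical.

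The members and gene lists were chosen with earlier results of these data known. Named were all 10 members and every other tested ETS gene. From each list, up to 6 called genes with the largest changes were named, or else the most abundant one. Also named were the 5 protein-coding genes most like Etv5, leaving out predicted genes and clone names, and genes sharing exons with a member. Cop1, Nras, Rps6ka3, Grb2, the uncalled immediate early genes, the neighbours of Ets1 and Elk4 and the marker genes were named after their values were seen.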

Additional observations from a re-analysis of the deposited data

How the results depend on the processing

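The log2 fold change of Etv5 stayed between -1.82 and -1.66 with any 1 library left out and moved by less than the spread between replicates with other size factors, filters, DESeq2 and limma-voom. On the log2(FPKM + 1) scale it was -0.83 (SE 0.06; SE 0.07 without a filter) and on the log2(FPKM + 0.1) scale -1.56 (SE 0.12), since the pseudocount shrinks the change of a gene near 1 FPKM. That of Etv1 was -1.07 to -0.89 and that of Etv4 -4.99 to -3.64 with 1 library left out, but on the log2(FPKM + 1) scale they were only -0.35 and -0.28, and on the log2(FPKM + 0.1) scale -0.83 and -1.55. The number of genes called was 1503, against 899 without the filter on low counts, 867 on the unfiltered FPKM and 529 to 1243 with 1 library left out. Same-numbered libraries did not deviate together across all genes (r = 0.01, 0.01 and -0.06 across genes for numbers 1 to 3), so the numbers were not taken to pair the samples. In CPM, the immediate early genes Egr1, Egr2, Fos, Junb, Nr4a1 and Cyr61 and, by little, Srf were nonetheless highest in replicate 2 of both groups. The other tested genes of the same list, Fosb, Ier2, Mcl1 and Klf6, were not. With the number as a replicate block, 408 genes were called, 5 ERK output genes fell and 1 rose, 5 immediate early genes rose, the SE of Egr1 was 0.10 against 0.23 without the block, and the Etv5 value was -1.74 (SE 0.13). Without the filter 1 ERK output gene rose. With 1 library left out, 5 to 7 fell and 1 to 2 rose, while 3 to 5 immediate early genes rose and 1 fell. At these depths Etv4 rests on few reads, and its level with GSK126 is near the limit of detection.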
